A study of Mus musculus with 8 samples.

Results

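Genes of Wnt ligands, Frizzled receptors, their coreceptors and a nuclear effector were followed in macrophages sorted from mouse mammary tumours. The 10 members are the ligands Wnt4, Wnt5a and Wnt7b, the receptors Fzd1, Fzd4, Fzd5 and Fzd7, the coreceptors Lrp5 and Lrp6, and the transcription factor Tcf7l2. They are 10 of 18194 genes with a probe set on the array, and 24 of its 45101 probe sets carry one of their symbols and no other. The probe set that stands for a gene was chosen by its signal, as the one with the highest mean over the 8 arrays, and the others are given beside it. The genes were proposed with earlier results of these arrays known, so the values below describe them and are not independent support for a change in Wnt signalling. Both groups were FVB mice aged 80 days that carried the PyMT transgene, which drives mammary tumours, and an E2f3 allele flanked by recombination sites (f/f). The 4 control arrays (arrays B, C, D and G) came from PyMT;E2f3 f/f mice, with no Cre recombinase. The 4 E2f3-deleted arrays (here also called deleted; arrays A, E, F and H) came from PyMT;Lys Cre:E2f3 f/f mice, in which Cre is driven from the lysozyme gene and so acts in myeloid cells at large, not in macrophages alone. Cells were sorted on the surface protein F4/80, and RNA from them was put on Affymetrix arrays, named below by their replicate letters. No group carries Cre without the deletion, so loss of E2f3 and presence of Cre cannot be told apart. Scan file letters in the deposited records differ from the title letters, except for array H. Groups here follow the titles. Read as title letters, the scan letters would put array B in the deleted group and array F among the controls. That reading would bear on every difference below. The scan letters also run from A to D over the 4 controls and from E to H over the 4 deleted arrays, so they need not name another grouping. The labels do not say whether each array is a separate animal or a pool, so the errors below measure the spread between arrays.

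Wnt proteins are secreted lipid-modified ligands. They bind Frizzled receptors, which span the membrane, and in the canonical branch an LRP5 or LRP6 coreceptor joins the complex, the destruction complex that degrades beta-catenin is halted, and beta-catenin acts with TCF/LEF factors such as TCF7L2 on target genes. Other branches signal through ROR and RYK receptors, calcium and cell polarity. WNT7B from macrophages is known for its action on vascular endothelium, FZD4 is the receptor of norrin in endothelial cells, and WNT5A is made by many stromal cells.

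Signals are RMA log2 values, on which a difference of 1 is a doubling. A signal depends on the probes as well as on the RNA, so the differences given are between arrays and not between genes or probe sets. Signal levels across genes and probe sets were used only to choose probe sets, to filter, to call some dim and to sum marker lists. Such uses do not measure relative amounts of RNA. Macrophage genes were bright in both groups, with Csf1r at 14.33 ± 0.050 in controls and 14.33 ± 0.039 in the deleted group (SD over 4 arrays), and all 14 macrophage markers with a probe set passed the filter on mean signal. The median of those 14 markers, taken from the control mean, was −0.19 to −0.07 in E2f3-deleted arrays and −0.04 to 0.06 in controls (exact permutation test, p = 0.0286, the smallest that 70 assignments allow, and 0.229 after adjustment over 8 marker lists). The brighter E2f3 probe set differed by −0.05 (SE 0.085), with a 95% confidence interval from −0.24 to 0.15. Where it lies relative to the deleted part is not given, so it does not check the labels. Deleted array H stood apart, with a mean correlation to its own group of 0.983, against 0.990 to 0.991 for the other 3 and 0.994 to 0.995 for the controls. The 3′ Gapdh signal minus the 5′ one, which tracks RNA degradation, was 1.67 ± 0.167 in the E2f3-deleted group and 1.45 ± 0.064 in controls (SD over 4 arrays). It was 1.87, 1.48, 1.59 and 1.73 in deleted arrays A, E, F and H, and 1.39 to 1.53 in the controls. Its order among the deleted arrays (A, H, F, E) was also that of the brightest Fzd4 probe set below. A further Fzd4 probe set, 1419301_at, had another order (F, H, A, E). The part of RNA degradation in the values below was not tested.

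With all 8 arrays and no covariate, Fzd4 had the highest difference of the members. It was 2.33-fold higher in E2f3-deleted macrophages, and all 4 E2f3-deleted arrays lay above all 4 controls. Wnt4, Wnt5a and Fzd1 had differences of 0.58, 0.59 and 0.59, and of 0.15, 0.07 and 0.02 without array H. The other 6 members, Wnt7b, Fzd5, Fzd7, Lrp5, Lrp6 and Tcf7l2, had differences between −0.09 and 0.19. By limma, 0 of the 10 passed an adjusted p of 0.05, where 0.00% of the 10916 genes tested did. Fzd4 alone was under an unadjusted p of 0.05, against 14.2% of all genes tested. It was also the 1 member of 10 (10%) whose groups did not overlap, against 8.49% of all genes tested, so the members' count is near the background. The shares of 14.2% and 8.49% are over genes above the filter on mean signal, whereas the 10 members include 4 under it. Fzd4 is 1 of the 6 above it. Of the 10, 6 had a mean signal above the filter of 5.998 (Wnt7b, Fzd1, Fzd4, Fzd5, Fzd7 and Lrp6) and were tested among genes. The 4 below it (Wnt4, Wnt5a, Lrp5 and Tcf7l2) were fitted among all probe sets, and their adjusted p-values are over those.

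**Figure D1:**
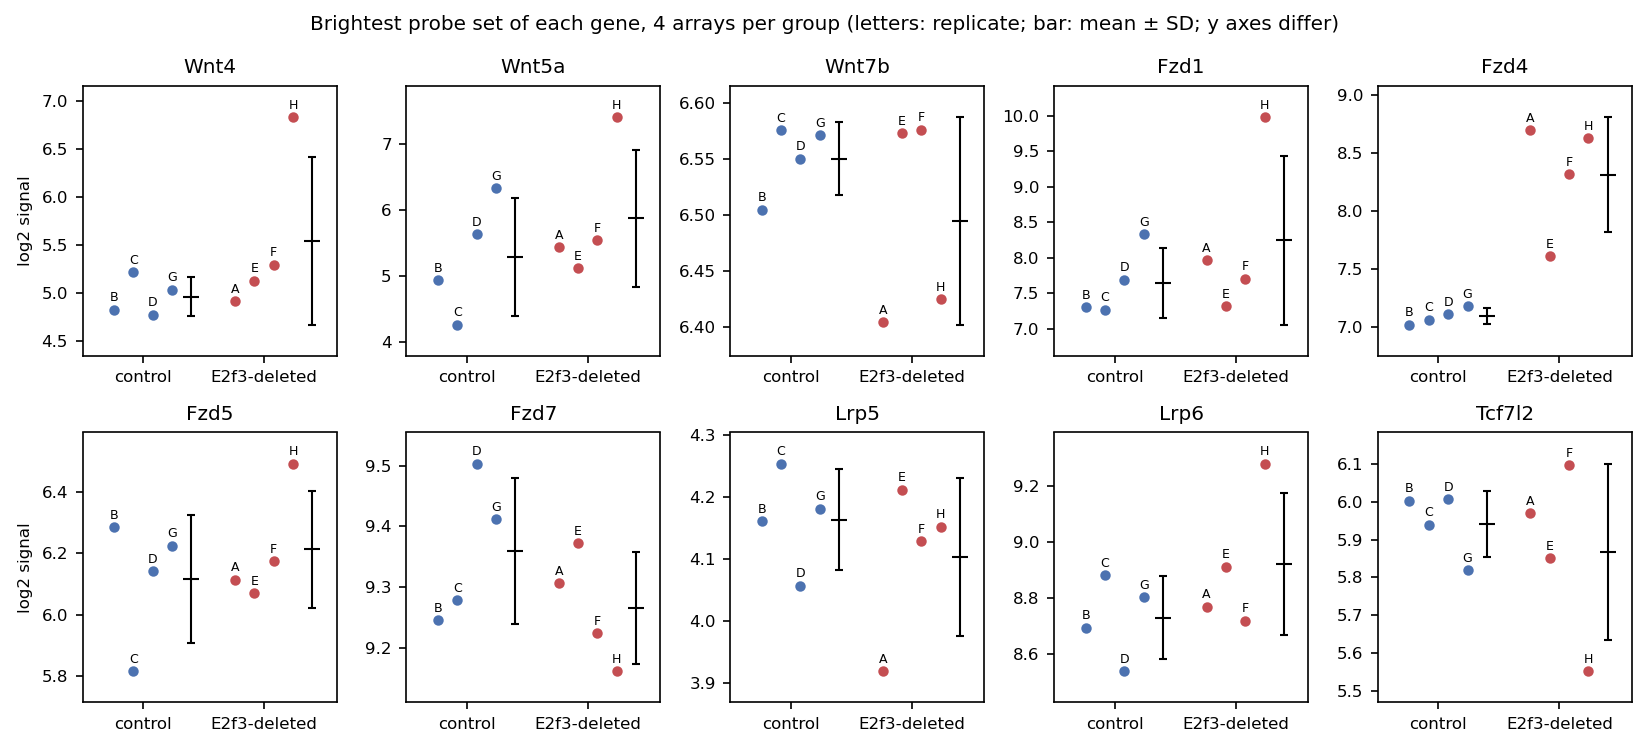
Log2 signal of the brightest probe set of each of the 10 genes on the 4 control arrays (blue) and the 4 E2f3-deleted arrays (red), with letters for replicates, bars for mean ± SD and a separate y axis per gene. The groups are apart for Fzd4, where controls lie between 7.02 and 7.18, and array H is the highest array for Wnt4, Wnt5a and Fzd1.

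Fzd4 encodes a Frizzled that takes up norrin as well as Wnts. Its brightest probe set, 1434756_at, had log2 signals of 7.02, 7.06, 7.11 and 7.18 in control arrays B, C, D and G. In deleted arrays A, E, F and H the signals were 8.69, 7.61, 8.31 and 8.63. The controls were tightly grouped, arrays A, F and H lay more than 1 unit above them, and array E, the lowest, lay 0.43 above the highest control. The group means were 7.09 ± 0.068 and 8.31 ± 0.496 (SD over 4 arrays), both above the filter. The difference was 1.22 (SE 0.220, 95% confidence interval from 0.71 to 1.72), or 2.33-fold (1.64 to 3.30). Its adjusted p was 0.158 over all genes tested (limma), and 113 genes (1.04%) had a higher difference. Without array E the difference was 1.45 and passed the threshold (limma, adjusted p = 0.00353), in a run where 60 genes did. Leaving out the lowest array of the higher group raises the difference by construction. Without array H the difference was 1.11 (limma, adjusted p = 0.0950). With any other single array left out, the adjusted p lay between 0.160 (without control array D) and 0.438 (without control array B, limma). With groups set by scan file letters, so that B and F trade places, the Fzd4 difference was 0.57 (limma, adjusted p = 0.893).

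A further Fzd4 probe set went the same way. Probe set 1419301_at had 6.91, 6.74, 6.69 and 6.49 in control arrays B, C, D and G, and 7.53, 7.05, 8.001 and 7.84 in deleted arrays A, E, F and H. Again the groups did not overlap and array E was the lowest of its group. The difference was 0.90 (SE 0.194, limma over all probe sets, adjusted p = 0.289). The third, 1449416_at, lay between 2.92 and 3.15 on all 8 arrays, at the bottom of the scale, and differed by 0.07. With the mean of the 3 probe sets in place of the brightest, the Fzd4 difference was 0.73. In all, 2 of the 24 member probe sets, both of Fzd4, had groups that did not overlap, against 5.96% of all probe sets.

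**Figure D2:**
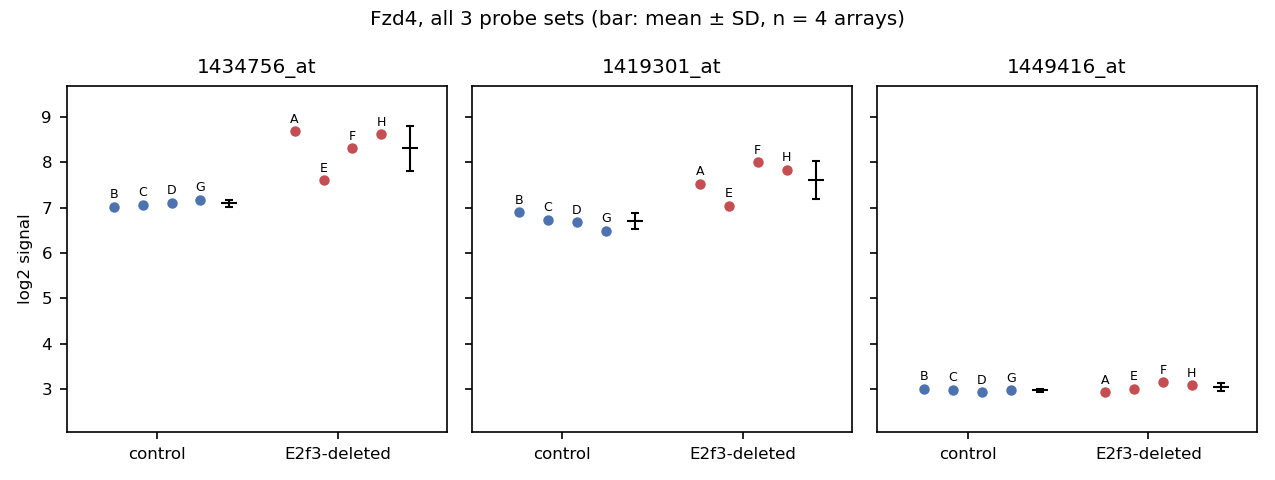
Log2 signal of the 3 Fzd4 probe sets by array, with bars for mean ± SD (n = 4 arrays per group) on a shared y axis. In 1434756_at and 1419301_at every E2f3-deleted array lies above every control, and 1449416_at stays between 2.92 and 3.15.

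Promoter sequences are shown for Fzd4, whose groups did not overlap, for Fzd1 and Wnt4, which were highest in array H, and for Fzd7, where a TCF/LEF match was found. Each is the 250 bases before the annotated start, on the strand of the gene, from RefSeq on GRCm38.p6. Windows were on hand for 6 of the 10 genes (Fzd1, Fzd4, Fzd5, Fzd7, Tcf7l2 and Wnt4); Wnt5a, Wnt7b, Lrp5 and Lrp6 are named only. The Fzd4 window lies at chr7:89404116-89404365 on the plus strand, Fzd1 at chr5:4758217-4758466 on the minus strand, Wnt4 at chr4:137277385-137277634 on the plus strand and Fzd7 at chr1:59481897-59482146 on the plus strand. Capitals mark a TCF/LEF match.
Fzd4: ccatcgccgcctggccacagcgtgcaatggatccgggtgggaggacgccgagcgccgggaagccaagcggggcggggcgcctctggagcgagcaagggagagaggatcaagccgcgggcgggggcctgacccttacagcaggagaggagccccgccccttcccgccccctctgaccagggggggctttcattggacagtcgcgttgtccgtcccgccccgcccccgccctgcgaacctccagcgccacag
Fzd1: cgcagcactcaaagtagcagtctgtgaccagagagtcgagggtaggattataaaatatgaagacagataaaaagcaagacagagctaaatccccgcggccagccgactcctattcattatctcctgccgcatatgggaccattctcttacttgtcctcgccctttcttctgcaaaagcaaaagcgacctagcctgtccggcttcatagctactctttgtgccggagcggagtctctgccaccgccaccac
Wnt4: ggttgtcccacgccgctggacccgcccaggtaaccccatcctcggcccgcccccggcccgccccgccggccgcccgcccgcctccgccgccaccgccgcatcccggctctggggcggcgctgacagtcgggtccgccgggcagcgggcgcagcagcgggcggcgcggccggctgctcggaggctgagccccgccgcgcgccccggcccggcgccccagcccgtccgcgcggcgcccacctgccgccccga
Fzd7: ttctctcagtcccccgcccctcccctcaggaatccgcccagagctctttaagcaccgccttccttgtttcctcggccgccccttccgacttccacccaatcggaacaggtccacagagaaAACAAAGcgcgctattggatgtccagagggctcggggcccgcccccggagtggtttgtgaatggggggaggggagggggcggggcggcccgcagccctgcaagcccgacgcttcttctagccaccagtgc

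The motif of TCF/LEF factors was searched as CTTTG followed by AA, AT, TA or TT, and that of E2F factors as TTTCCCGC, TTTCGCGC, TTTGCCGC or TTTGGCGC, on both strands, and the matches found in these windows do not overlap. In Fzd7 the match is CTTTGTT on the opposite strand, at positions −130 to −124 from the start. Tcf7l2 has 2 windows on chromosome 19, and the downstream one holds CTTTGTT on the gene's strand at positions −14 to −8. A TCF/LEF match occurs in 14.84% of the 32851 windows of this length, and an E2F match in 1.86%. None of the 7 windows of the 6 genes holds these E2F letters. The windows of Fzd4 and Wnt4 are rich in G and C, at 72.8% and 85.2%, against 51.2% in Fzd1 and a median of 52.4% over all windows. These are descriptions of letters in a window and not of binding.

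Fzd1 is a receptor of the canonical branch. Its brightest probe set, 1437284_at, read 7.31, 7.27, 7.70 and 8.33 in control arrays B, C, D and G, and 7.97, 7.32, 7.71 and 9.98 in deleted arrays A, E, F and H. Arrays A, E and F lay within the range of the controls, and array H lay above all of them, 2.33 over the control mean. The means were 7.65 ± 0.493 and 8.25 ± 1.19 (SD over 4 arrays), a difference of 0.59 (SE 0.554, limma, adjusted p = 0.636) with a 95% confidence interval from −0.68 to 1.87. Without array H the difference was 0.02. The dimmer probe set, 1422985_at, lay between 2.88 and 3.44 and differed by −0.04.

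Fzd5 and Fzd7 are further Frizzleds, and FZD5 has been studied as a WNT5A receptor of macrophages. Fzd5 (1455604_at) read 6.28, 5.82, 6.14 and 6.22 in control arrays B, C, D and G and 6.11, 6.07, 6.17 and 6.49 in deleted arrays A, E, F and H. The groups overlapped, with control array C the lowest array and array H the highest. The difference was 0.10 (SE 0.129, limma, adjusted p = 0.747), with an interval from −0.20 to 0.39, and it was −0.0043 without control array C. Fzd7 (1450044_at) read 9.25, 9.28, 9.50 and 9.41 in the controls and 9.31, 9.37, 9.22 and 9.16 in deleted arrays A, E, F and H. Here array H was the lowest array, and the groups overlapped. The difference was −0.09 (SE 0.078, limma, adjusted p = 0.589). Its interval, from −0.27 to 0.08, does not contain the value found for Fzd4, and the difference between the genes was not tested. The dimmer Fzd5 and Fzd7 probe sets differed by 0.03 and −0.11.

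Wnt5a, a ligand known mainly for signalling outside the beta-catenin branch, varied widely within both groups. Probe set 1436791_at, its brightest, read 4.94, 4.26, 5.63 and 6.33 in control arrays B, C, D and G, and 5.43, 5.12, 5.54 and 7.41 in deleted arrays A, E, F and H. The controls alone spanned more than 2 units, and arrays A, E and F fell inside that span. The difference was 0.59 (SE 0.566, limma over all probe sets, adjusted p = 0.730), with an interval from −0.70 to 1.87, and it was 0.07 without array H. Of the other 3 Wnt5a probe sets, 1437673_at and 1448818_at differed by 0.25 and 0.20, with array H the highest array in both, and by −0.08 and −0.04 without it. The last, 1456976_at, differed by −0.15.

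Wnt4, a ligand of the mammary gland that acts downstream of progesterone, was dim. Its brighter probe set, 1450782_at, read 4.83, 5.22, 4.77 and 5.04 in control arrays B, C, D and G, and 4.92, 5.13, 5.29 and 6.83 in deleted arrays A, E, F and H. Array H was 1.87 above the control mean, while arrays A and E lay inside the range of the controls and F just above it. The difference was 0.58 (SE 0.373, limma over all probe sets, adjusted p = 0.613), with an interval from −0.27 to 1.43, and 0.15 without array H. The other probe set, 1441687_at, differed by 0.26, and array H was again its highest array, at 5.72. Without array H that difference was −0.01.

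Wnt7b, the ligand that macrophages are known to present to endothelium, had a difference close to 0. Probe set 1420892_at read 6.505, 6.58, 6.55 and 6.57 in control arrays B, C, D and G and 6.40, 6.57, 6.58 and 6.43 in deleted arrays A, E, F and H. Arrays A and H lay below every control and arrays E and F at the level of the highest controls. The difference was −0.06 (SE 0.060, limma, adjusted p = 0.680), with an interval from −0.19 to 0.08, which is 0.962-fold (0.875 to 1.06). The dimmer probe set, 1420891_at, lay between 3.52 and 4.12 and differed by 0.21, so the mean of both gave 0.08 and the direction turned.

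The coreceptors LRP5 and LRP6 carry the canonical signal with a Frizzled. Lrp6 (1428500_at) read 8.69, 8.88, 8.54 and 8.80 in control arrays B, C, D and G and 8.77, 8.91, 8.72 and 9.28 in deleted arrays A, E, F and H. Array H was the highest array and the others overlapped. The difference was 0.19 (SE 0.133, limma, adjusted p = 0.525), with an interval from −0.12 to 0.50, and 0.07 without array H. The other Lrp6 probe set differed by 0.03. Lrp5, with 1 dim probe set (1449299_at), read 4.16, 4.25, 4.06 and 4.18 in the controls and 3.92, 4.21, 4.13 and 4.15 in deleted arrays A, E, F and H. Array A was the lowest array, and the difference of −0.06 (SE 0.081, limma over all probe sets, adjusted p = 0.808) was 0.00084 without it.

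Tcf7l2, the nuclear partner of beta-catenin among the members, has 4 probe sets. The brightest, 1426639_a_at, read 6.003, 5.94, 6.01 and 5.82 in control arrays B, C, D and G and 5.97, 5.85, 6.10 and 5.55 in deleted arrays A, E, F and H. Array H was the lowest array, and arrays A, E and F lay near the controls. The difference was −0.07 (SE 0.115, limma over all probe sets, adjusted p = 0.837), and 0.03 without array H. The other 3 probe sets differed in direction. The difference was 0.31 in 1429428_at (SE 0.139, interval from −0.01 to 0.62), 0.17 in 1429427_s_at and −0.08 in 1425229_a_at, and none passed the threshold.

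Markers of other cell types varied across the same arrays. All values are medians over a list, in log2 units from the control mean. The 18 endothelial markers had medians of 1.99, 1.07, 2.02 and −0.04 in deleted arrays A, E, F and H, and −0.45 to 0.44 in the controls (exact permutation test of the group difference, p = 0.114, 0.424 after adjustment over 8 lists). Among arrays A, E and F, E was the lowest both for Fzd4 and for this median. Array H had Fzd4 at 8.63, 1.53 above the control mean, with the endothelial median at the control level. Single endothelial markers in array H lay on both sides of their control means. Erg read 6.23, against 5.28 to 6.20 in the controls, and Vwf read 6.55, against 6.80 to 7.91. Cdh5, the vascular cadherin, read 5.003, against 4.83 to 5.61 in the controls, and Pecam1 read 4.54, against 4.53 to 5.18. Cdh5 and Pecam1 lay below the filter on mean signal, and the other 16 endothelial markers passed it. With the endothelial median as a covariate the Fzd4 difference was 1.199 (limma, adjusted p = 0.230), below those of Fzd1, Wnt4 and Wnt5a. In that fit Fzd1 was 1.57 in place of 0.59, Wnt4 1.47 in place of 0.58 and Wnt5a 1.40 in place of 0.59 (limma, adjusted p = 0.284, 0.255 and 0.503). Lrp6 was 0.50 and Fzd5 0.29, in place of 0.19 and 0.10, while Fzd7 was −0.18, Tcf7l2 −0.33 and Wnt7b −0.09, and Lrp5 turned to 0.04. None passed the threshold. Among the deleted arrays, H alone had its endothelial median at the control level, and Fzd1, Wnt4 and Wnt5a were highest in it. Their values in this fit therefore depend strongly on array H. Without array H and with no covariate they were 0.02, 0.15 and 0.07. Arrays A, E and F lay above every control in the covariate, so the fit cannot fully tell covariate and group apart. The summed linear signal of the endothelial list ran from 1608 to 3497 in controls and from 2513 to 12702 in E2f3-deleted arrays.

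Array H, in which Wnt4, Wnt5a and Fzd1 were highest, also had the highest medians of the mast cell and fibroblast lists. The 9 mast cell markers had a median of 3.18 in array H, 0.37 in A, 1.13 in E and −0.34 in F, and −0.29 to 0.22 in the controls. The 12 fibroblast markers had 2.13 in array H, 0.83 in A, −0.39 in E and −0.05 in F, and −0.62 to 0.42 in the controls. In control array G, where Wnt5a and Fzd1 were highest among the controls, the fibroblast median was also the highest of the controls. The summed signal of the mast cell list was 660.0 to 1018 in controls and 938 to 14356 in E2f3-deleted arrays, and that of the fibroblast list 9646 to 23217 and 12239 to 55474. The 10 pericyte and smooth muscle markers had medians of 1.18, 0.23, 1.35 and −0.39 in arrays A, E, F and H, against −0.15 to 0.15 in the controls. The medians of the 16 epithelial markers were 0.30, 0.79, 0.80 and −0.27 in the same order, against −0.39 to 0.76 in the controls. Those of the 10 lymphocyte markers were −0.13, −0.40, 0.08 and −0.57, against −0.50 to 0.53, and those of the 6 neutrophil markers −0.49, 0.31, 0.50 and −0.16, against −0.17 to 0.23. The part of these cell types in the values of the members was not tested. In sorted bulk RNA, more cells of a type and more RNA per cell cannot be told apart.

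**Figure D3:**
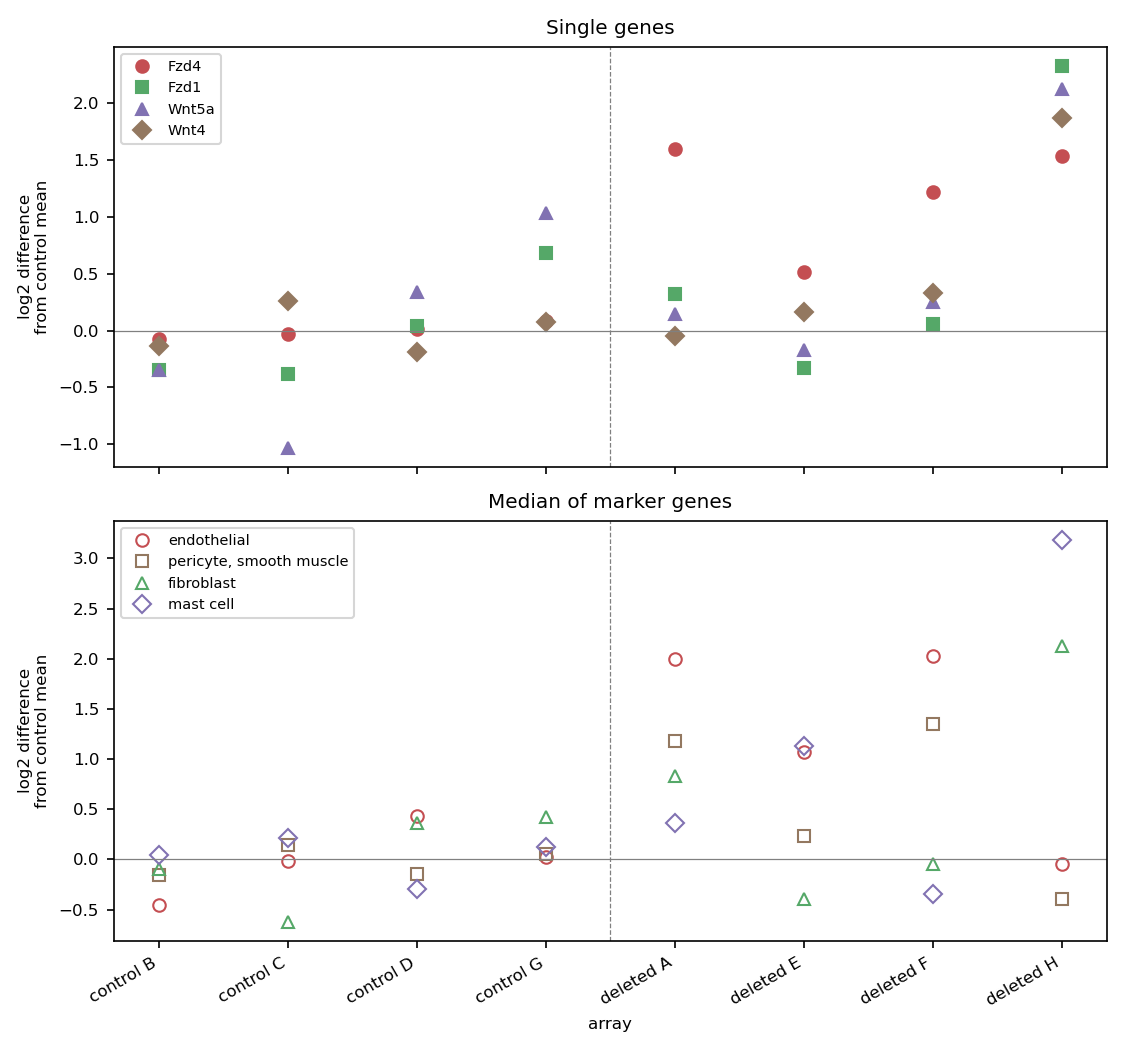
Log2 difference from the control mean on each of the 8 arrays, for Fzd4, Fzd1, Wnt5a and Wnt4 (upper panel, filled symbols) and for the median of 4 marker lists (lower panel, open symbols). In deleted array H all 4 genes lie 1.53 or more above the control mean, with the mast cell median at 3.18, the fibroblast median at 2.13 and the endothelial median at −0.04.

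Among all 10 Frizzled genes, each of which passed the filter, 9 had a difference above 0, against 41.3% of all genes tested, and 4 were higher at an unadjusted p under 0.05, against 14.2% of all genes tested in either direction, with 0 past the adjusted threshold (limma; smallest adjusted p = 0.158). The median of the 10 was 0.41, against −0.03 for all genes tested. Without array H 8 were above 0, 3 were under an unadjusted p of 0.05 and the median was 0.14. Fzd6 was 8.24 ± 0.531 in controls and 9.14 ± 0.338 in the deleted group (SD over 4 arrays), a difference of 0.90 (SE 0.274, limma, adjusted p = 0.249). Its lowest E2f3-deleted array, array E at 8.66, lay below control array D at 8.83. Fzd6 differed by 0.32 with its probe sets averaged and by 0.16 with groups set by scan file letters. Fzd8 differed by 0.28 (SE 0.118, limma, adjusted p = 0.337). Fzd3, which was named after its values were seen, differed by 0.59 (SE 0.247, limma, adjusted p = 0.337). It is among the 4 that were higher at an unadjusted p under 0.05. The mean of Fzd3 was 5.95 in controls, below the filter, and 6.54 in the deleted group, above it. Fzd3 was thus tested because of its signal in the deleted group. Fzd9, also named after its values were seen, read 9.15 in array H and between 6.28 and 6.67 on the other 7 arrays.

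**Figure D4:**
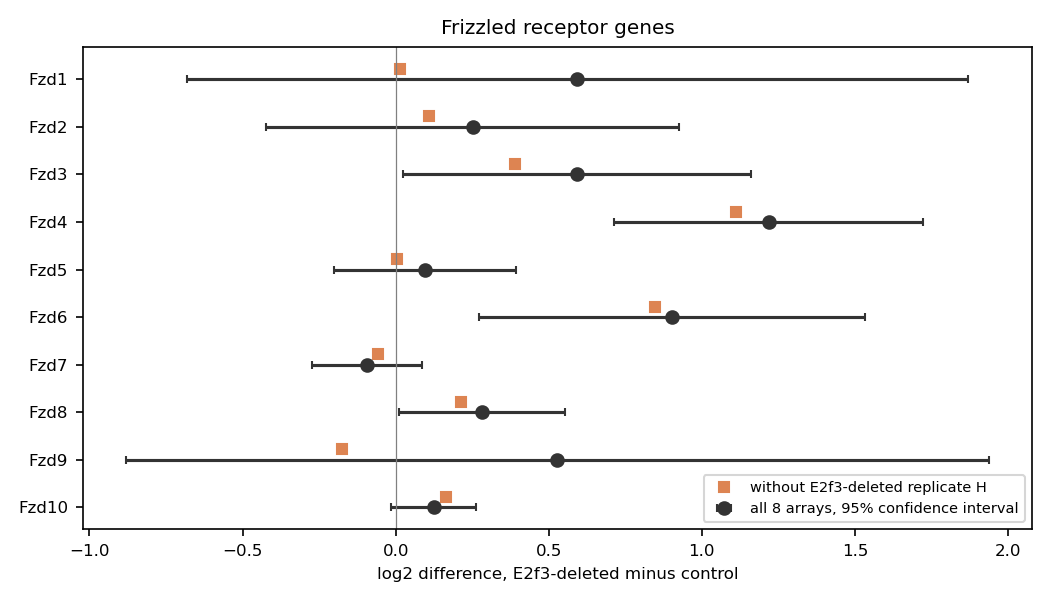
Log2 difference between E2f3-deleted and control arrays for the 10 Frizzled genes, with 95% confidence intervals from limma on all 8 arrays (circles), and the difference of means without array H (squares). Fzd4 has the highest difference, 1.22 and 1.11 without array H, while Fzd1 moves from 0.59 to 0.02 and Fzd9 turns below 0.

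Of 134 pathway genes in 11 lists, 131 had a probe set and 81 passed the filter. Among these 81, 0 passed the adjusted threshold (limma), and 15 were higher and 2 lower at an unadjusted p under 0.05, together 17 or 20.99%, against 14.2% of all genes tested. This count of 17 was 0 with groups set by scan file letters, 11 without control array C and 7 with the stricter 60th percentile filter, which tests fewer genes. The groups did not overlap in 7 (8.64%, against 8.49% of all genes tested). The count of 17 includes Fzd3, whose control mean lay below the filter, and Sfrp4, whose deleted mean did. Sfrp4 is also among the 7. Only 4 of the 19 Wnt ligands passed the filter, and 0 of them were under an unadjusted p of 0.05. Wnt5b differed by 0.57 (SE 0.393), with array H 1.51 above the control mean and 0.25 without it. Wnt7a and Wnt9a differed by −0.10 and 0.11. Of the other coreceptor genes, Ryk alone passed the filter. RYK is a receptor of the branches outside beta-catenin. It read 7.59, 7.55, 7.87 and 7.86 in control arrays B, C, D and G and 8.02, 8.05, 8.30 and 8.83 in deleted arrays A, E, F and H. All E2f3-deleted arrays lay above the controls, by a difference of 0.58 (SE 0.181, limma, adjusted p = 0.255), or 0.41 without array H.

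By limma, 0 of the 8 tested genes of Wnt secretion, receptor turnover and the WNT7 receptor complex were under an unadjusted p of 0.05. Of the secretion genes tested, Wls, the carrier of Wnts to the cell surface, differed by 0.11, Porcn, which adds the lipid, by 0.05, and Tmed5 by −0.06, and without array H all 3 were below 0. The receptor turnover genes Lgr4, Lgr6 and Znrf3 differed by 0.26, 0.15 and 0.11. Reck and Adgra2, which form a WNT7 receptor complex with Frizzleds in brain endothelium, differed by 1.26 and 0.61, and without array H by 0.22 and 0.20. Reck read 11.13 in array H and between 5.95 and 7.26 on the other 7 arrays. Ndp, the gene of norrin, and Tspan12 are in the same list as Reck and Adgra2 but lay below the filter and were not tested. Among 7 inhibitors tested that are secreted or, as Apcdd1 and Kremen1, sit in the membrane, Sfrp4 was lower on every E2f3-deleted array, with 6.10 to 6.30 in controls and 5.77 to 6.06 in E2f3-deleted macrophages, a difference of −0.23 (SE 0.082, limma, adjusted p = 0.281). The mean of Sfrp4 was 6.21 in controls, above the filter, and 5.97 in the deleted group, below it. Sfrp4 was thus tested because of its signal in the controls. Apcdd1, which is also a canonical target, and Dkk3 differed by 0.90 and 0.49, and without array H by 0.19 and 0.10.

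Inside the cell, 1 of 14 dishevelled and destruction complex genes was under an unadjusted p of 0.05. This was Dvl1, which relays the signal from Frizzleds, with 9.78 to 10.04 in controls and 10.05 to 10.13 in E2f3-deleted macrophages, a difference of 0.21 (SE 0.067, limma, adjusted p = 0.258). Amer1 and Csnk1d differed by 0.16 and 0.11. Of 12 nuclear effectors, Tcf7l1, a TCF factor that often represses targets, differed by 0.81 (SE 0.226, limma, adjusted p = 0.231). Array E, at 7.22, was its lowest deleted array, so leaving it out raises the difference by construction. Without array E the adjusted p was 0.0372 (limma). Without array H the adjusted p was 0.247 (limma). With any other single array left out, it lay between 0.218 (without control array D) and 0.492 (without control array B, limma). With groups set by scan file letters Tcf7l1 differed by 0.15 (limma, adjusted p = 0.946). Bcl9l, a coactivator of beta-catenin, differed by 0.28 (SE 0.097, limma, adjusted p = 0.280). Pygo2, another coactivator of beta-catenin, differed by −0.11. Of 7 canonical targets tested, Tnfrsf19 was higher by 0.93 (SE 0.326, limma, adjusted p = 0.281) and Myc lower by 0.24, a difference of −0.24 (SE 0.101, limma, adjusted p = 0.336). Without array H, Myc differed by −0.18 and was no longer under an unadjusted p of 0.05. With probe sets averaged, Tcf7l1 and Tnfrsf19 both differed by 0.42 and Bcl9l by 0.14.

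The list of polarity and calcium genes had 6 of 19 at an unadjusted p under 0.05, all higher, against 14.2% of all genes tested in either direction. Without array H 6 were higher and 0 lower at that level, and without array E 5 were higher and 1 lower. Daam1, a formin that links dishevelled to the actin skeleton, differed by 0.39 (SE 0.099, limma, adjusted p = 0.207) with groups that did not overlap, and by 0.40 without array H. Plcb1, a phospholipase of calcium signalling, differed by 1.02 (SE 0.262, limma, adjusted p = 0.211), also without overlap. With probe sets averaged, Daam1 differed by 0.088 and Plcb1 by 0.26. Prickle2, a polarity protein, differed by 0.67 (SE 0.210, limma, adjusted p = 0.255). The list's median was 0.06, near that of all genes tested.

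**Figure D5:**
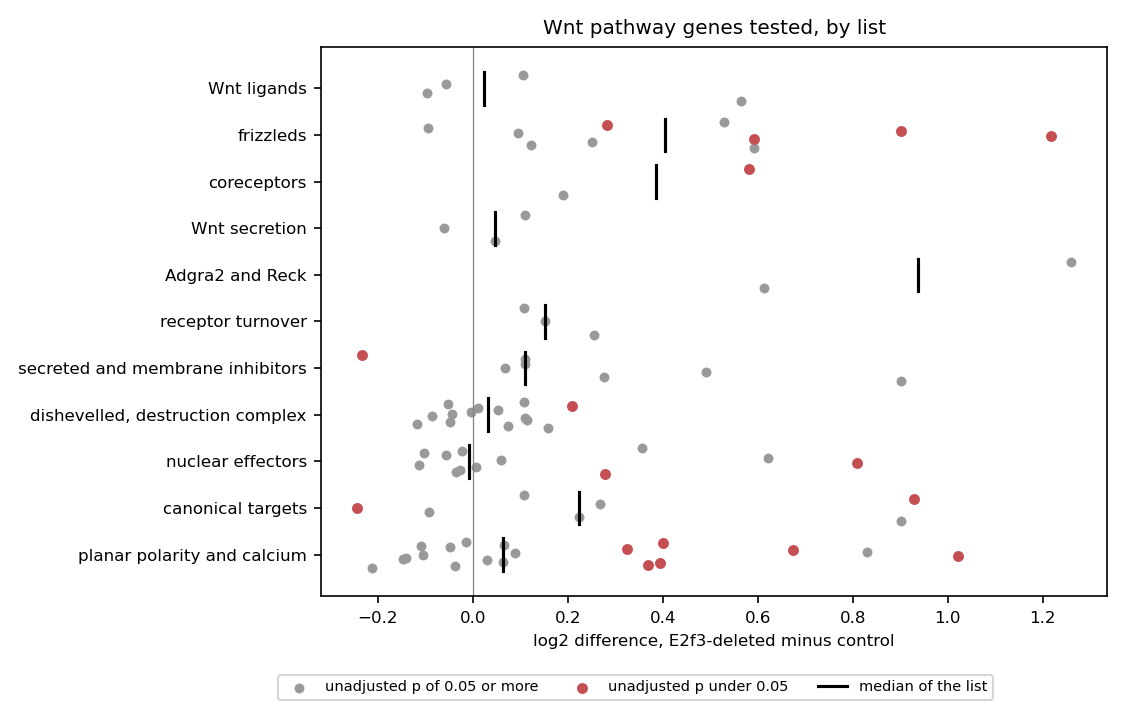
Log2 difference between E2f3-deleted and control arrays for each tested gene of the 11 Wnt pathway lists, with red points for an unadjusted p under 0.05 in limma, grey points for the rest and a black line at the list's median. The Frizzled median is 0.41 and those of ligands, nuclear effectors and the destruction complex lie at 0.02, −0.01 and 0.03.

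The genes whose signals went most like a member's over the 8 arrays are given as a description, by Pearson's correlation coefficient among all genes tested, with groups and cell makeup shared by the points. For Fzd4 they were Tril, a partner of Toll-like receptors (0.994), the interleukin-1 receptor Il1r1 (0.988) and Ace, the angiotensin-converting enzyme (0.987). Tril read 5.86 to 6.11 in controls and 7.73, 6.48, 7.30 and 7.65 in deleted arrays A, E, F and H. As with Fzd4, array E was the lowest of its group and array H was high. For Fzd1 they were Fndc3b (0.995), the growth factor gene Pdgfa (0.985) and Nat8f1 (0.978), each highest in array H. For Lrp6 they were Cd1d1 (0.970), the mast cell protease Cpa3 (0.960) and Slc35e3 (0.959), and Cpa3 read 12.88 in array H against 6.56 to 8.34 in the controls. For Wnt7b they were Cox8a (0.982), Vim (0.973) and Txndc17 (0.971), for Fzd5 Egr3 (0.986), Gatd3a (0.984) and Zfp518b (0.958), and for Fzd7 Chchd4 (0.934), Hnrnpll (0.928) and Cct5 (0.928).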

How the data were processed

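The deposited values are log2 signals per probe set, made by the authors with RMA per the submitters' processing notes. RMA corrects background, equalises array distributions and summarises probes, so a shift shared by most genes is not seen. For arrays, their number limits the precision.

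Members and lists were chosen with earlier results of these data known. Titles gave the groups. The scan file letters in the descriptions differ from the title letters and, read as title letters, would exchange the groups of arrays B and F. Whether they were meant as title letters is unknown. No pair of arrays shared over 0.317% identical values. Of 45101 probe sets, 34958 had exactly 1 symbol in the platform annotation, 932 several and 9211 none; 34754 were found by Entrez ID in RefSeq (GRCm38.p6). The brightest probe set stood for a gene, and a filter at the 40th percentile of mean signal (log2 5.998) left 10916 genes. Differences (E2f3-deleted minus control) came from limma 3.58.1 in R 4.3.3 (lmFit, eBayes, two-sided, Benjamini-Hochberg), tested on simulated data. Named genes were the members, the 3 of each pathway list with the smallest p, the 3 most correlated with each member above the filter, and others said to be chosen after their values were seen. Marker genes and E2f3 are named as checks. Alternatives covered probe set choice, filter, scaling, prior, weights, an endothelial covariate, grouping by scan file letter and each array left out.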

Additional observations from a re-analysis of the deposited data

Results flagged for a closer look

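Among the 48 groups of 4 arrays examined (24 member probe sets in both conditions), 3 held an array whose gap to its nearest neighbour took up more of the group's range than Dixon's 95% critical value allows. Chance gives about 1 such group in 20. All 3 concern dim Wnt5a probe sets. In 1448818_at, deleted array H read 5.317, with the other 3 deleted arrays between 4.30 and 4.41. In 1437673_at, deleted array H read 5.356, against 3.95 to 4.13 in the others, and control array G read 5.037, against 3.75 to 3.91 in the other controls.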

How the results depend on the processing

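Of the 10 members, 6 kept the sign of their difference in every alternative run. With each gene's probe sets averaged, Wnt7b was 0.077 and Tcf7l2 0.0821, and Csnk1d −0.0578. With array weights Tcf7l2 was 0.00938 and Porcn −0.000686, and with the endothelial covariate Lrp5 was 0.0356 and Lgr4 −0.180. Grouping by scan file letter gave Wnt9a −0.0352, Tmed5 0.00529, Porcn −0.0247, Lgr4 −0.182, Lgr6 −0.148 and Pygo2 0.0522, with 449 genes at an unadjusted p under 0.05 and 263 with groups apart; the 60th percentile filter, which tests fewer genes, gave 945 and 572. The cause of the other changes was not tested.

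Leaving out 1 array at a time moved Fzd4 between 1.09 and 1.45, Fzd5 between −0.00432 and 0.152, Lrp5 between −0.0969 and 0.000843, Tcf7l2 between −0.151 and 0.0314, Wls between −0.0734 and 0.194, Porcn between −0.0468 and 0.131, and Lgr6 between −0.151 and 0.317. Genes past the adjusted threshold ranged from 0 to 60 (60 without deleted array E, 14 without H, 0 otherwise), genes at an unadjusted p under 0.05 from 1010 to 1855, and genes with groups apart from 1148 to 1819. With all arrays these counts were 0, 1548 and 927. Smaller groups separate more readily, so counts of groups apart with an array left out cannot be compared with 927. The list counts without array H were chosen after seeing the data. No paired analysis was possible because the labels give no pairing of arrays.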
